A study of Rattus norvegicus with 18 samples.

Results

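The protein part of the cytosolic ribosome was followed across 6 groups of rat H9C2 cultures. Its genes were taken as the protein-coding rows of the deposited gene table whose symbol is Rpl or Rps with a number (with or without an a, x or y), or Rplp0, Rplp1, Rplp2 or Rpsa. The rule found 89 of 32545 rows, which carry 69 symbols. Of the rows, 57 belong to the large subunit and 32 to the small subunit. H9C2 is a line derived from embryonic rat heart, and the labels call its cell type myocardium. The study exposed these cells to short electric pulses, with or without a pretreatment called PE (the sources used here do not spell the name out). Gene expression was measured by sequencing of poly(A) RNA in 18 libraries, 3 per group. The P group received 50 µmol/L PE for 48 h, the P_ES10 group received the same PE and then 10 pulses, and the P_ES50 group the same PE and then 50 pulses. The ES10 and ES50 groups received 10 or 50 pulses without PE, and the NC group received neither. Each pulse lasted 100 µs at 1500 V/cm in all 4 pulsed groups. All groups are 1 cell line, the replicates are only numbered, and the time from the pulses to harvest is not given in the sources used here.

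Each cytosolic ribosome joins a large subunit, which forms peptide bonds, to a small subunit, which reads the mRNA. Cells make nearly all of its proteins in equal numbers. The mRNAs of these proteins typically begin with a cytosine and an unbroken pyrimidine stretch, the terminal oligopyrimidine (TOP) motif, through which growth signals set their translation together. In heart muscle, ribosome production is a known part of growth in cell size.

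The libraries held 14004929 to 17247201 reads each, recovered from the deposited FPKM (fragments scaled by gene length and by library). The library term was not the count of all reads. Rplp0 had fewer reads in ES50 1 (8116 of 17247201) than in NC 1 (25438 of 14017831) but a higher FPKM. Reads on ribosomal protein rows numbered 85923 to 435119 per library, with the lowest numbers in ES50. The 37 mitochondrial genes took 5.48% ± 0.104 of reads in P, 6.46% ± 0.377 in P_ES10, 48.6% ± 1.66 in P_ES50, 12.9% ± 1.21 in NC, 9.44% ± 0.319 in ES10 and 92.1% ± 0.728 in ES50 (SD, n = 3 each). Changes below are on the scale of the deposited FPKM unless another is named. On it the median log2 fold change over all tested genes was -0.13 in ES50 versus NC and between -0.01 and 0.02 in the other 4 comparisons of groups. Of the cardiomyocyte markers, Myl2 had no read and Myh6 averaged 0.0115 FPKM in NC, while Tnnt2 averaged 12.1 FPKM. Markers of other types were mixed as well. In NC the skeletal muscle factor Myod1 averaged 32 FPKM, but Myog 0.951 FPKM and Myf5 0.00715 FPKM. The fibroblast gene Col1a1 averaged 1449 FPKM, but Pdgfra 0.0304 FPKM and Dcn 0.1 FPKM. Of the smooth muscle markers, Acta2 averaged 1402 FPKM and Myh11 1.57 FPKM.

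The first bases of 6 members are printed because the TOP motif lies there and because these are the 3 largest and the 3 smallest increases after 50 pulses without PE among abundant members (at least 100 FPKM in NC) with a sequence, leaving out Rps19 and Rps27a, each of which has a further row described later. They were chosen from that change, which gives no test. The sequences are from RefSeq (rat build GRCr8), on the transcript strand, from 10 bases before to 20 bases from the annotated start. Capitals mark a run, here a C within 5 bases of the start followed by at least 4 further C or T. Bases before that C were not checked, and in Rpl4 the pyrimidines also extend before it.
Rps28, chr7:15311314-15311343, minus strand: ccctgctcacgtgaCTCCTCTCCgctagat
Rplp0, chr12:46718371-46718400, minus strand: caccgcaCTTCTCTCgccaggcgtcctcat
Rpl41, chr7:1563478-1563507, minus strand: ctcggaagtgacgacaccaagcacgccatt
Rpl3, chr7:113507971-113508000, minus strand: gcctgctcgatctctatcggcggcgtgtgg
Rpl4, chr8:73566467-73566496, plus strand: tcttcCTTTTCCTgtgggagcagccgggta
Rpl17, chr18:70856266-70856295, plus strand: ttcgcgCTTCCTCTTCCTgttagcggccag
A run of this kind is in 4 of these 6 windows, on both sides of the choice: Rps28 and Rplp0 among the largest increases, Rpl4 and Rpl17 among the smallest. Of the 69 symbols, 54 had a window, and 33 of these (61.1%) held the run on the transcript strand, against 17.0% of the 27457 genes with a window. Runs of at least 8 bases were in 27 of the 54 (50%), against 4.09% of all genes. The 29 abundant members with a run had a median log2 fold change of 1.32 in ES50 versus NC (range 0.64 to 1.80), and the 16 without a run had 1.15 (0.61 to 1.70). For P_ES50 versus P the medians were 0.31 with a run and 0.29 without. The annotated start sets where the window lies, so a window without the run says only that these letters are not near that start.

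In untreated NC cells the members spanned the range from no read to the most abundant mRNAs. Of the 89 rows, 57 averaged at least 100 FPKM, and the median of the 79 tested rows was 308 FPKM, against 6.61 FPKM over all 11917 tested genes. The highest were Rpl41, the smallest ribosomal protein, at 1949 ± 87.3 FPKM, Rplp0, the scaffold of the stalk, at 1027 ± 3.59 FPKM, and Rpl13a of the large subunit at 895.2 ± 22.5 FPKM (SD, n = 3 each). Tested members were short, with a median annotated length of 552 bases against 2113 over all tested genes. Of the symbols, 59 stand on 1 row and 10 share 30 rows, with Rpl39 on 7. The 20 rows beyond the highest of each symbol held 0.285% of the members' reads, and none averaged over 25.3 FPKM in NC. The lowest tested rows were all of this kind: Rps29 (ENSRNOG00000029443) at 1.59 FPKM, Rpl37 (ENSRNOG00000033803) at 0.562 FPKM and Rpl39 (ENSRNOG00000038654) at 0.0942 FPKM.

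The share of reads that fell on the members depended on what they were counted against. Of reads on nuclear genes, they took 2.84% ± 0.138 in P, 2.94% ± 0.0278 in P_ES10, 3.53% ± 0.0790 in P_ES50, 3.04% ± 0.0649 in NC, 2.91% ± 0.0744 in ES10 and 7.23% ± 0.235 in ES50 (SD, n = 3 each). Of all reads, mitochondrial ones included, they took 2.68% ± 0.128 in P, 2.75% ± 0.0216 in P_ES10, 1.81% ± 0.0232 in P_ES50, 2.64% ± 0.0559 in NC, 2.63% ± 0.0756 in ES10 and 0.570% ± 0.0709 in ES50. The 3 ES50 libraries therefore lay above all others on the first scale and below all others on the second. The sum of the members' FPKM was 62439 ± 2551 in ES50, against 24379 ± 812 in NC. In bulk RNA, a change in the cells that remained and a change in RNA per cell cannot be told apart.

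**Figure D1:**
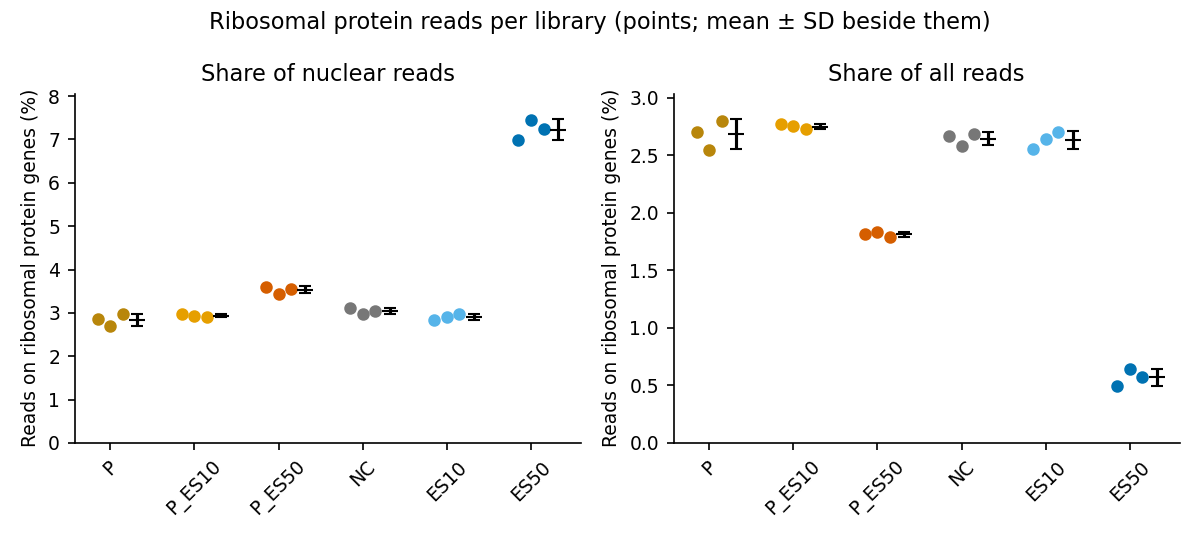
Reads on the 89 ribosomal protein rows per library, as a percentage of reads on nuclear genes and of all reads, with each library as a point and the mean ± SD of 3 beside it. ES50 libraries sat at 6.98% to 7.45% of nuclear reads, above the NC libraries at 2.97% to 3.10%, but at 0.498% to 0.640% of all reads, below the NC libraries at 2.58% to 2.68%.

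The balance between the subunits moved little. The summed FPKM of large-subunit rows over that of small-subunit rows averaged 1.33 ± 0.0308 in P, 1.34 ± 0.0296 in NC, 1.30 ± 0.0126 in ES10 and 1.33 ± 0.0191 in ES50 (SD, n = 3 each), and lay between 1.29 and 1.38 in each of the 18 libraries. The 3 ES10 libraries lay below the 3 NC libraries, and the ES50 and NC libraries overlapped.

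The 50 pulses without PE gave the widest change of the family, in a direction that depended on the scale. In ES50 versus NC, 72 of the 79 tested members rose and 0 fell on the deposited scale and on that of nuclear reads, while on the scale of all reads 0 rose and 75 fell, and after quantile normalization 58 rose and 5 fell (limma, adjusted p under 0.05). Over all tested genes 31.9% rose and 40.1% fell on the deposited scale. The median log2 fold change of the members was 1.23, against -0.13 over all tested genes. Scaled to all reads, these medians were -2.20 and -2.43, and 34 of the 11917 tested genes rose. After quantile normalization they were 0.31 and 0.07, the change of Rplp0 was 0.12, and Rps3, Rpl3, Rpl41 and Rps27a had negative changes. The mitochondrial share given above moved with the group, and its part in the result was not tested. The 3 ES50 libraries lay above the 3 NC libraries in 72 members and below them in 0 on the deposited scale, against 29.9% and 37.8% of all tested genes.

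Both subunits took part on the deposited scale. Of the large-subunit rows 43 of 49 rose, with a median log2 fold change of 1.22, and of the small-subunit rows 29 of 30, with a median of 1.29 (on the scale of all reads, 0 of the 79 rose). The 57 members of at least 100 FPKM in NC all rose on the deposited scale, by 0.61 to 1.82 on the log2 scale, and their median of 1.25 corresponds to 2.39-fold. Of the 15 members of at least 1000 bases, 15 rose (median 1.22), and of the 64 shorter ones 57 did (median 1.24). Across the 57 abundant members, the change had a Pearson correlation with log10 gene length of -0.32 and a Spearman correlation of -0.29, as a description over genes that share their libraries.

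The stalk of the large subunit, which recruits the elongation factors, held the largest increase among the members chosen by role (on the deposited scale). Rplp0 (ENSRNOG00000001148; Rnor 6.0, chr12:46791528-46794797, minus strand) had 3345, 3511 and 3348 FPKM in ES50, against 1025, 1024 and 1031 FPKM in NC. The lowest ES50 library thus lay far above the highest NC library, and the log2 fold change was 1.73 ± 0.04 (limma, SE, adjusted p = 5.03e-15). Its partner Rplp1 (ENSRNOG00000013874) had 1520, 2095 and 1847 FPKM in ES50, against 569.1, 668.9 and 584.6 FPKM in NC, a log2 fold change of 1.57 ± 0.10. The ES50 libraries of Rplp1 varied more among themselves than those of Rplp0, without overlap with NC.

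Among small-subunit members the largest increases were those of Rps29 and Rps28. Rps29 (ENSRNOG00000004196; Rnor 6.0, chr6:91455333-91456696), a zinc-binding protein of the subunit's head, had 2676, 2934 and 2975 FPKM in ES50, against 866.9, 715.1 and 861.2 FPKM in NC, a log2 fold change of 1.82 ± 0.09 (limma, SE, adjusted p = 4.53e-11). Rps28 (Rnor 6.0, chr7:18682071-18683440), which lies near the exit of the mRNA channel, had 1107, 1253 and 1253 FPKM in ES50, against 392.9, 273.7 and 377.3 FPKM in NC, a log2 fold change of 1.80 ± 0.12. In both genes all ES50 libraries exceeded all NC libraries by more than the spread within either group. Rpsa, also known as the laminin receptor, averaged 1910 ± 69 FPKM in ES50 and 665.6 ± 14.6 FPKM in NC (SD, n = 3 each; log2 fold change 1.52 ± 0.04). Rps3, at the entry of the mRNA channel, averaged 1066 ± 28.6 FPKM in ES50 and 532.8 ± 7.98 FPKM in NC (1.00 ± 0.03). Rps4x and Rps27 rose between these sizes, with log2 fold changes of 1.28 ± 0.05 and 1.43 ± 0.10. The row of Rps6, the main phosphorylated protein of the small subunit, averaged 9.41 ± 2.00 FPKM in ES50 and 4.48 ± 0.161 FPKM in NC, far below its neighbours in the subunit, and a further row that names it is described below.

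**Figure D2:**
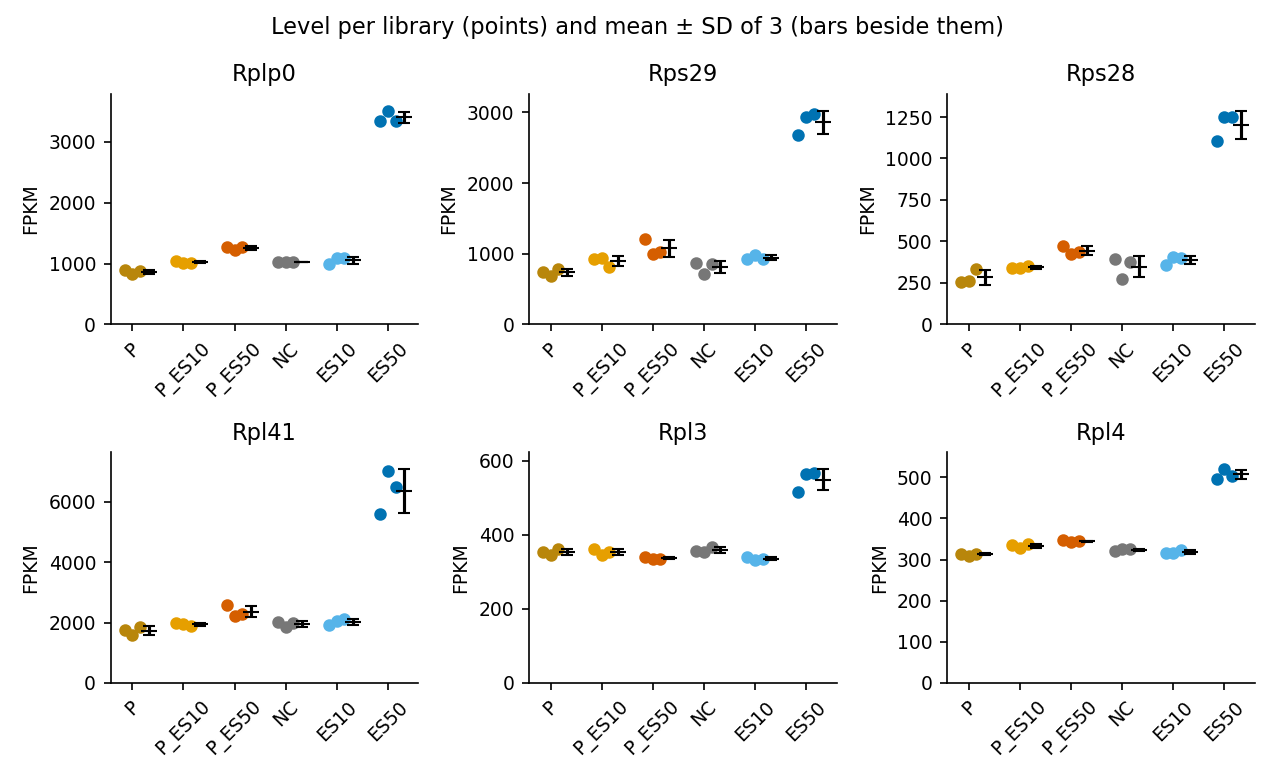
FPKM per library of 6 members, with each library as a point and the mean ± SD of 3 libraries beside it. On this deposited scale ES50 lies above NC in each panel, and after scaling to all reads Rplp0, Rps28, Rps29, Rpl41 and Rpl3 reversed it (Rpl4 was not followed there), as did Rpl41 and Rpl3 after quantile normalization.

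Among abundant large-subunit members, Rpl41 had the largest increase after Rplp0, and Rpl3 the smallest. Rpl41 (Rnor 6.0, chr7:2972900-2973977) had 5577, 7003 and 6475 FPKM in ES50, against 2012, 1850 and 1986 FPKM in NC, a log2 fold change of 1.70 ± 0.08. Rpl3 (Rnor 6.0, chr7:121297356-121302818), part of the peptidyl transferase centre, had 516.9, 563.5 and 568.0 FPKM in ES50, against 355.3, 354.0 and 367.7 FPKM in NC, a log2 fold change of 0.61 ± 0.03 (limma, SE, adjusted p = 2.52e-10). Both sets of ES50 libraries lay above their NC libraries, but the increase of Rpl3 was the smallest of the 57 abundant members. Rpl4, which lines the exit tunnel and is named here after its values were seen, was next, with 496.9, 519.8 and 504.2 FPKM in ES50 against 321.5, 324.6 and 326.5 FPKM in NC (0.64 ± 0.02). Rpl5 and Rpl11, which bind the ubiquitin ligase Mdm2 when ribosome assembly is disturbed, had log2 fold changes of 1.00 ± 0.03 and 1.24 ± 0.05. Rpl11 averaged 87.9 ± 4.12 FPKM in ES50 and 36.6 ± 1.60 FPKM in NC, and its row is long for a ribosomal protein (3845 bases), which lowers an FPKM.

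The 7 members that did not pass the test in ES50 were mostly minor rows of a shared symbol. They were Rpl39 (ENSRNOG00000048073, log2 fold change -0.71), Rpl35a (ENSRNOG00000032348, -0.27), Rps29 (ENSRNOG00000029443, 0.22), Rpl37 (ENSRNOG00000033803, 0.80), both rows of Rpl7a (0.43 and 1.61) and Rpl38 (0.44 ± 0.26). The largest fitted increase of any member was also a minor row, Rpl39 (ENSRNOG00000032835), at 2.02 ± 0.42 (limma, SE, adjusted p = 4.73e-04). It rests on 6, 2 and 4 reads in the ES50 libraries and 4, 7 and 9 reads in the NC libraries, whereas the main Rpl39 row (ENSRNOG00000043348) averaged 1276 ± 59.6 FPKM in ES50 and 421.9 ± 20.8 FPKM in NC (1.59 ± 0.06).

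Short, abundant mRNAs of other functions changed alike in sign. Of 100 nuclear genes under 1000 bases and of at least 100 FPKM in NC that name no cytosolic ribosomal protein, 84 rose and 14 fell in ES50, with a median log2 fold change of 1.01. Without the limit on length, 194 of 344 such abundant genes rose and 131 fell (median 0.32). The proteins of the mitochondrial ribosome, which are also made from nuclear genes, gave 63 higher and 2 lower of 73 (median 0.92). These counts are on the deposited scale, as are those of the members, and the difference between the members and these genes was not tested.

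**Figure D3:**
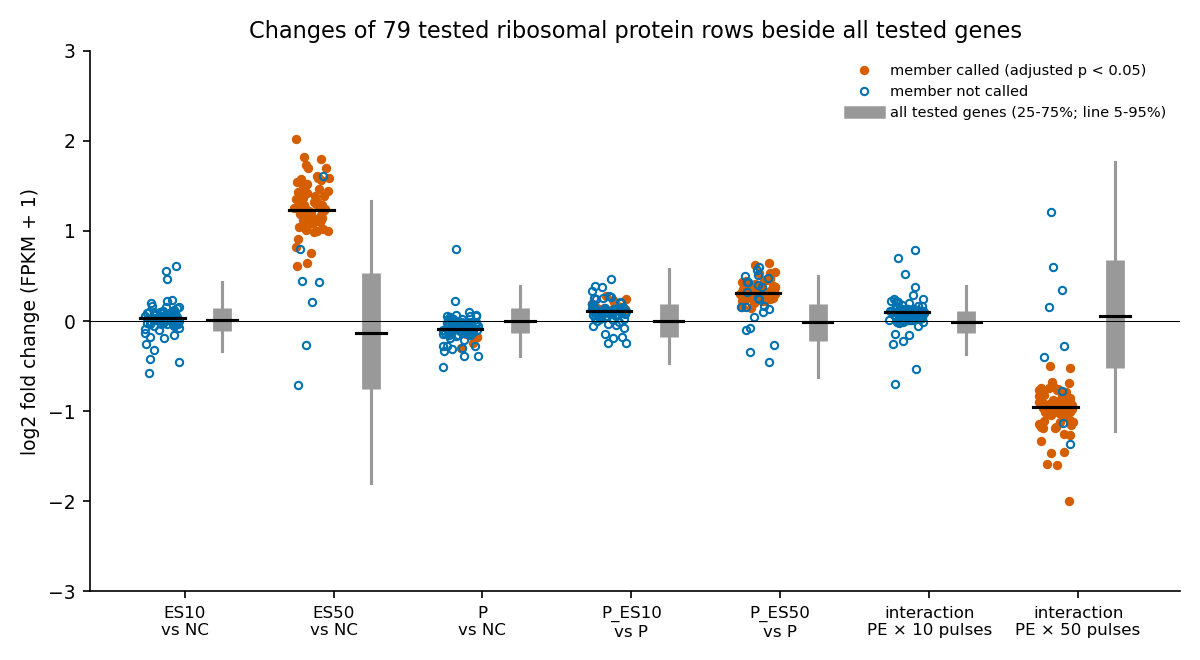
Log2 fold changes of the 79 tested members in 7 contrasts (filled points called at adjusted p under 0.05, open points not called) beside all tested genes (grey bars, 25th to 75th percentile; thin lines, 5th to 95th percentile). In ES50 versus NC the median of the members was 1.23 on the deposited scale, against -0.13 over all tested genes, with overlapping ranges. The members' median there was -2.20 when scaled to all reads and 0.31 after quantile normalization. For the interaction of PE and 50 pulses it was -0.96 on the deposited scale, against 0.05 over all tested genes, also with overlapping ranges. The members' median of that interaction was 1.66 when scaled to all reads and -0.23 after quantile normalization.

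Genes that act with the ribosome did not all follow it. Of 20 rows of other mRNAs with a TOP motif, 17 rose and 1 fell in ES50 (median log2 fold change 0.77), against 31.9% and 40.1% of all tested genes. Eef1a1, which brings aminoacyl-tRNA to the ribosome, averaged 2780 ± 53.3 FPKM in ES50 and 1674 ± 43.4 FPKM in NC (0.73 ± 0.03), and Tpt1, a translationally controlled growth protein, 1364 ± 9.26 FPKM in ES50 and 596.1 ± 14.9 FPKM in NC (1.19 ± 0.03). The gene that fell was Eif4b, a helper of the initiation helicase (-0.29 ± 0.06). Of 36 factors that assemble ribosomes or make ribosomal RNA, 3 rose and 24 fell (median -0.46). Gnl3, a nucleolar GTPase, averaged 14.3 ± 1.64 FPKM in ES50 and 46.1 ± 0.692 FPKM in NC (-1.63 ± 0.06). The nucleolar helicase Ddx21 (-1.62 ± 0.08) and the assembly factors Rrp12 (-1.65 ± 0.14) and Utp20 (-1.39 ± 0.11) fell as well, while Nop10, a small protein of the pseudouridylation complex, rose (1.32 ± 0.08).

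Of 16 regulators of ribosomal protein synthesis, 3 rose and 8 fell in ES50 (18.8% and 50%), against 31.9% and 40.1% of all tested genes. Myc, a transcription factor that drives ribosome production, averaged 7.05 ± 2.52 FPKM in ES50 and 19.7 ± 0.372 FPKM in NC (-1.42 ± 0.16). Ddit4, an inhibitor of the growth kinase mTOR (-1.68 ± 0.08), and Larp1, which binds TOP mRNAs (-0.87 ± 0.07), also fell, and Rheb, the activator of mTOR, rose (0.93 ± 0.07). Of 8 rows of ribosomal protein paralogs and fusions outside the rule, 5 rose and 1 fell. Among them, Rps27l (1.41 ± 0.06), both Rpl36al rows (1.25 ± 0.08 and 1.72 ± 0.11) and Rpl22l1 (1.02 ± 0.09) rose, and Rpl7l1, known as an assembly factor, fell (-0.44 ± 0.09). Fau, a fusion with a ubiquitin-like protein, had 1.32 ± 0.65 (adjusted p = 0.0795), Rpl39l had 0.22 ± 0.39 (adjusted p = 0.614), and Rpl3l and Rpl10l were too low to be tested.

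The 10 pulses without PE changed no member past the threshold. In ES10 versus NC, 0 of 79 members rose and 0 fell (limma, adjusted p under 0.05), against 6.36% and 2.21% of all tested genes. At an unadjusted p under 0.05 there were 5 higher and 2 lower members, against 1576 and 837 of the 11917 tested genes. At the adjusted threshold, 7 members fell and 0 rose when scaled to nuclear reads, and 5 fell and 0 rose after quantile normalization. The median log2 fold change was 0.03, against 0.02 over all tested genes. The 3 ES10 libraries lay above the 3 NC libraries in 9 members and below them in 4, against 23.9% and 15.8% of all tested genes. Rplp0 had 990.1, 1084 and 1088 FPKM in ES10, which spans the NC values given above. Of the regulators, Myc averaged 39.4 ± 1.02 FPKM in ES10 and 19.7 ± 0.372 FPKM in NC (0.96 ± 0.16, adjusted p = 0.00134), and of the other TOP mRNAs 4 rose and 0 fell.

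With PE and no pulses, a few members were slightly lower on the deposited scale, and none on that of all reads. In P versus NC, 0 of 79 rose and 7 fell (limma, adjusted p under 0.05) on the deposited scale, against 4.72% and 4.81% of all tested genes, while on the scale of all reads 1 rose and 0 fell, and after quantile normalization 3 rose and 7 fell. Of the 100 short, abundant nuclear genes of other functions, 5 rose and 17 fell on the deposited scale. The median log2 fold change of the members was -0.08, against 0.00 over all tested genes. The 3 P libraries lay below the 3 NC libraries in 14 members and above them in 0, against 20.7% and 22.0% of all tested genes. The 7 were Rplp0, Rpl12, Rpl13a, Rpl17, Rpl32, Rps3a and Rpsa, so 5 of 49 large-subunit rows and 2 of 30 small-subunit rows.

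Rplp0 had 892.9, 826.4 and 880.9 FPKM in P, against 1025, 1024 and 1031 FPKM in NC, and fell by 0.24 on the log2 scale (limma, SE 0.04, adjusted p = 9.06e-04). Rpl17, which lines the exit tunnel, had 111.6, 96.8 and 108.5 FPKM in P, against 132.5, 124.2 and 133.3 FPKM in NC, and fell by 0.30 (SE 0.08, adjusted p = 0.0216). Rpl32 of the large subunit (ENSRNOG00000010746) had 316.0, 285.0 and 310.0 FPKM in P, against 362.3, 330.6 and 337.7 FPKM in NC, and fell by 0.18 (SE 0.05, adjusted p = 0.0299). In these 3 genes every P library was below every NC library. Among the related lists, 0 of 20 TOP rows rose and 3 fell, and 0 of 16 regulators rose and 4 fell, among them Larp1 (-0.27) and Sesn2, a stress-induced inhibitor of mTOR (-0.50). The count of 7 became 1 without NC 1, NC 3 or P 2 and 3 without P 1. Rplp0 kept its call in each such fit, Rpl17 lost it without NC 1, NC 3 or P 2 (adjusted p 0.0790 to 0.108), and Rpl32 lost it without NC 1, NC 3, P 2 or P 3 (0.0505 to 0.143).

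A minority of members was higher after PE and 10 pulses than after PE alone on the deposited scale, and none on that of all reads. In P_ES10 versus P, 18 of 79 rose and 0 fell (limma, adjusted p under 0.05) on the deposited scale, against 13.2% and 9.66% of all tested genes, while 1 rose on the scale of nuclear reads, 0 on that of all reads, and 0 rose and 5 fell after quantile normalization. Of the 100 short, abundant nuclear genes of other functions, 22 rose and 2 fell on the deposited scale. The median log2 fold change of the members was 0.12, against 0.00 over all tested genes. The 3 P_ES10 libraries lay above the 3 P libraries in 28 members and below them in 0, against 27.2% and 25.7% of all tested genes. Rplp0 had 1040, 1016 and 1006 FPKM in P_ES10, against 892.9, 826.4 and 880.9 FPKM in P, a log2 fold change of 0.24 ± 0.04 (limma, SE, adjusted p = 3.92e-04). Rps29 (ENSRNOG00000004196) had 932.2, 942.1 and 809.1 FPKM in P_ES10, against 736.4, 686.7 and 782.9 FPKM in P (0.28 ± 0.09, adjusted p = 0.0317). Rpl26, at the exit of the tunnel, had 144.8, 138.5 and 134.1 FPKM in P_ES10, against 128.9, 109.0 and 122.7 FPKM in P (0.21 ± 0.05, adjusted p = 0.00950). The groups did not overlap in these 3 genes.

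Rps3 averaged 592.4 ± 17.0 FPKM in P_ES10 and 541.6 ± 10.9 FPKM in P (0.13 ± 0.03, adjusted p = 0.00788). The increases were spread over both subunits, with 13 of 49 large-subunit and 5 of 30 small-subunit rows. In the related lists, 11 of 20 TOP rows rose and 0 fell, with Pabpc1, the poly(A)-binding protein, at 0.36, and Myc averaged 44.7 ± 1.37 FPKM in P_ES10 and 14.6 ± 1.53 FPKM in P (1.56 ± 0.16). The proteins of the mitochondrial ribosome gave 2 higher and 11 lower of 73. The count of 18 became 5 without P 2, 8 without P_ES10 1 and 11 without P_ES10 2. Rplp0 kept its call in each such fit, Rps29 lost it without P 1, P 2, P_ES10 1 or P_ES10 2 (adjusted p 0.0765 to 0.129), and Rpl26 lost it without P_ES10 1 (adjusted p = 0.0510).

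On the deposited scale, but not on that of all reads, most members were higher after PE and 50 pulses than after PE alone. In P_ES50 versus P, 56 of 79 rose and 0 fell (limma, adjusted p under 0.05) on the deposited scale, against 14.1% and 14.2% of all tested genes, while on the scale of all reads 0 rose and 65 fell, and after quantile normalization 15 rose and 6 fell. The median log2 fold change was 0.31, against -0.01 over all tested genes, and scaled to all reads these medians were -0.58 and -0.77. The 3 P_ES50 libraries lay above the 3 P libraries in 54 members and below them in 1, against 24.2% and 26.4% of all tested genes. Of the large subunit 34 of 49 rows rose, and of the small subunit 22 of 30. Of the 57 abundant members 52 rose, with a median of 0.30, or 1.24-fold, on the deposited scale.

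Rps2, at the entry of the mRNA channel, had 1045, 908.1 and 948.7 FPKM in P_ES50, against 691.7, 570.6 and 624.1 FPKM in P (limma log2 fold change 0.62 ± 0.08, adjusted p = 2.57e-05). Rps28 had 473.3, 424.3 and 434.3 FPKM in P_ES50, against 253.6, 264.1 and 337.0 FPKM in P (0.65 ± 0.12, adjusted p = 9.20e-04). Rps29 (ENSRNOG00000004196) had 1216, 993.2 and 1026 FPKM in P_ES50, against 736.4, 686.7 and 782.9 FPKM in P (0.55 ± 0.09, adjusted p = 2.88e-04). In each of the 3 the lowest P_ES50 library lay above the highest P library. Rplp0 had 1275, 1220 and 1279 FPKM in P_ES50, also above all P libraries (0.54 ± 0.04), and Rpl41 had 2578, 2221 and 2280 FPKM in P_ES50, against 1756, 1586 and 1865 FPKM in P (0.44 ± 0.08). Rpsa (0.41 ± 0.04), Rps4x (0.35 ± 0.05), Rpl5 (0.27 ± 0.03), Rps3 (0.25 ± 0.03) and Rpl11 (0.23 ± 0.05) rose by smaller amounts. Rplp1 (ENSRNOG00000013874) had 0.39 ± 0.10 (adjusted p = 0.0116, or 0.0637 without P 2). Rps27 had 0.29 ± 0.10 (adjusted p = 0.0405), and lost its call without any 1 of 5 of the 6 libraries compared (adjusted p 0.0555 to 0.186). Rps6 did not pass, at 0.10 (adjusted p = 0.723).

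Of the 57 abundant members, Rpl3 and the Rps27a row were the ones with a negative log2 fold change in P_ES50 versus P on the deposited scale. Rpl3 had 340.0, 335.5 and 335.2 FPKM in P_ES50, against 354.7, 345.9 and 362.3 FPKM in P, and its log2 fold change of -0.07 ± 0.03 did not pass the test (limma, adjusted p = 0.138). All 3 P_ES50 libraries lay below the 3 P libraries. The call appeared on the scale of nuclear reads (-0.09, adjusted p = 0.0483), after quantile normalization (-0.30, adjusted p = 8.32e-06) and in a fit that left out ES50 (-0.07, adjusted p = 0.0312). Rpl4 had 346.5, 343.1 and 344.0 FPKM in P_ES50, against 314.7, 309.7 and 312.7 FPKM in P, and rose by 0.14 ± 0.02 (adjusted p = 4.31e-04).

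Of the 100 short, abundant nuclear genes of other functions, 70 rose and 4 fell in P_ES50 versus P (median log2 fold change 0.27). The other TOP rows gave 15 higher and 1 lower of 20, the assembly factors 9 higher and 1 lower of 36, the regulators 6 higher and 3 lower of 16, the mitochondrial ribosomal proteins 15 higher and 2 lower of 73, and the paralogs and fusions 4 higher and 0 lower of 8. Myc averaged 49.3 ± 1.67 FPKM in P_ES50 and 14.6 ± 1.53 FPKM in P (1.70 ± 0.16).

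The interaction tests ask whether the response to the pulses differed with PE, as the change with PE minus the change without. For 10 pulses, 0 of 79 members were higher and 0 lower (limma, adjusted p under 0.05), against 0.562% and 0.344% of all tested genes. At an unadjusted p under 0.05 there were 11 higher and 0 lower members, against 473 and 515 of the 11917 tested genes. For 50 pulses and adjusted p under 0.05, 0 members were higher and 70 lower on the deposited scale, against 31.1% and 27.9% of all tested genes. On the scale of all reads 74 members were higher and 0 lower. Quantile normalization left 40 lower and 0 higher. The median of the members was -0.96 on the log2 scale, against 0.05 over all tested genes, or -0.23 against -0.09 when quantile normalized. All 57 abundant members were lower, by -0.50 to -1.45, and so were 42 of 49 large-subunit and 28 of 30 small-subunit rows. Rplp0 had -1.19 ± 0.05, Rpl41 -1.25 ± 0.11, Rps29 -1.27 ± 0.12 and Rpl3 -0.68 ± 0.05. After quantile normalization Rplp0 and Rpl3 did not pass, at -0.03 and -0.04. The 100 short, abundant nuclear genes of other functions gave 13 higher and 78 lower (median -0.76), and the assembly factors, which had fallen in ES50, 24 higher and 2 lower of 36. The mitochondrial share of reads also differed (48.6% in P_ES50 and 5.48% in P, against 92.1% in ES50 and 12.9% in NC), and its part in the difference was not tested.

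Both responses to 50 pulses were set beside each other member by member, from libraries that they do not share. Over the 57 abundant members, the log2 fold change in P_ES50 versus P and that in ES50 versus NC had a Pearson correlation of 0.74 and a Spearman correlation of 0.65, as a description across genes. Without Rpl3 and Rpl4, the smallest increases in ES50, the Pearson correlation was 0.69 over 55 members, and also without Rps27a, whose row is described below, it was 0.66 over 54. The SD between members was 0.15 in P_ES50 versus P and 0.26 in ES50 versus NC, so the members differed less among themselves where their median change was smaller.

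**Figure D4:**
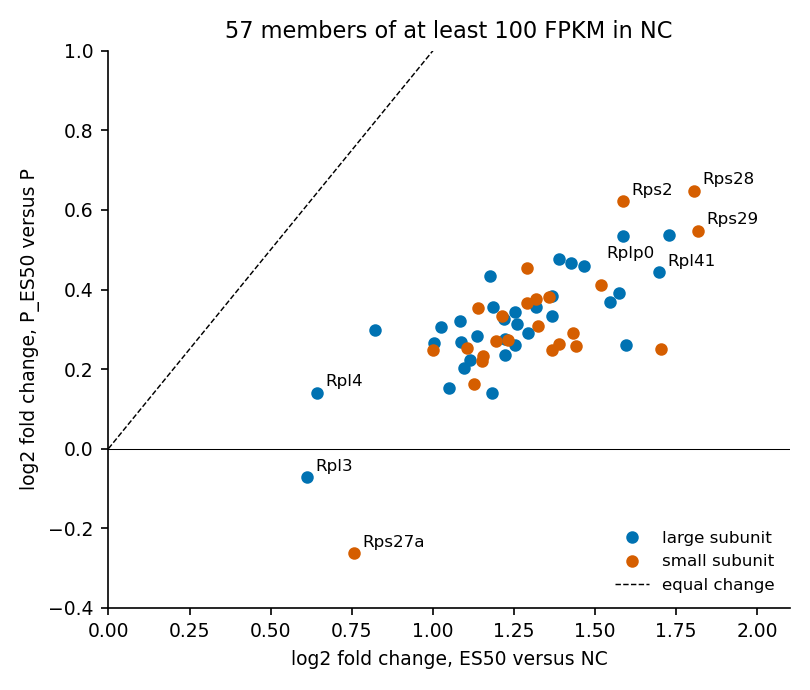
Log2 fold change in P_ES50 versus P (vertical) against ES50 versus NC (horizontal) for the 57 members of at least 100 FPKM in NC, on the deposited scale, with colours for the subunits and a dashed line of equal change. The points lie below the line, between 0.61 and 1.82 on the horizontal axis and between -0.26 and 0.65 on the vertical, and on the scale of all reads 75 of the 79 tested members fell in ES50 versus NC and 65 in P_ES50 versus P.

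Several members have a further row that names the same protein, and 5 such proteins were picked out after their values were seen. Rps27a, a fusion of ubiquitin with a small-subunit protein, had 448.6, 417.5 and 213.8 FPKM in NC libraries 1 to 3, while the row Rps27a-ps1 had 114.1, 113.5 and 295.1 FPKM in the same libraries. Their sum was 562.7, 530.9 and 508.9 FPKM, so the coefficient of variation in NC was 35.4% for Rps27a and 60.1% for Rps27a-ps1 but 5.06% for the sum. How reads were assigned between the 2 rows is not given in the sources used here, and its part was not tested. Alone, the Rps27a row had a log2 fold change of 0.76 ± 0.22 in ES50 versus NC (limma, adjusted p = 0.00538) and -0.26 ± 0.22 in P_ES50 versus P (limma, adjusted p = 0.411). The sum was 1311 ± 43.3 FPKM in ES50 against 534.2 ± 27.0 FPKM in NC, and 601.0 ± 18.8 FPKM in P_ES50 against 502.1 ± 29.7 FPKM in P (SD, n = 3 each). The sums did not overlap in either pair, and in the second pair the sum and the Rps27a row differed in direction.

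**Figure D5:**
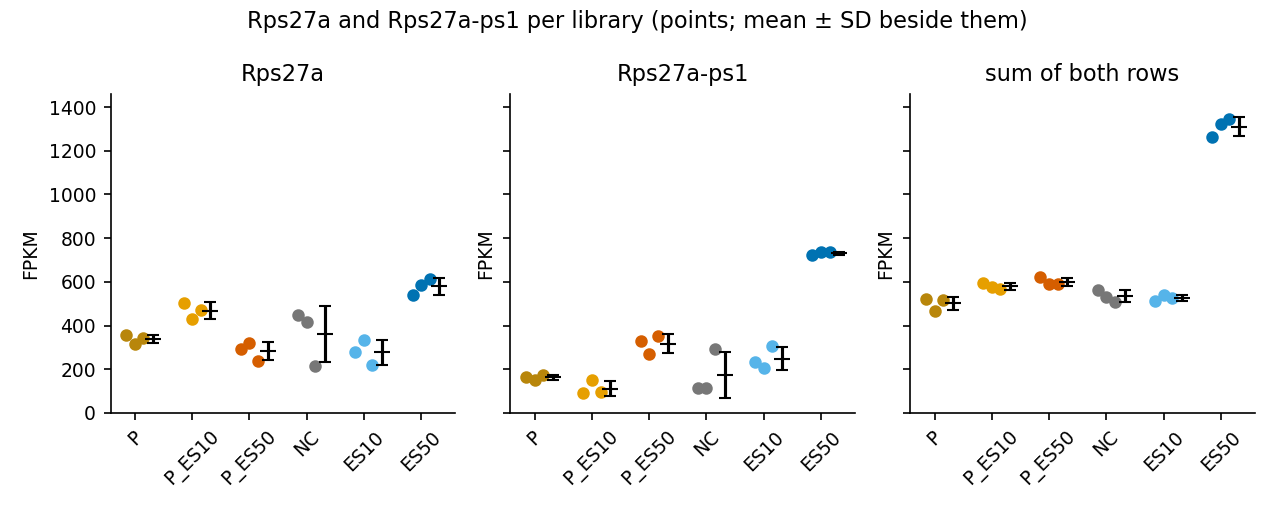
FPKM per library of Rps27a, of Rps27a-ps1 and of their sum, with each library as a point and the mean ± SD of 3 beside it. In the third NC library Rps27a was low at 213.8 FPKM and Rps27a-ps1 high at 295.1 FPKM, while the sum there was 508.9 FPKM, near the 562.7 and 530.9 FPKM of the other NC libraries.

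In other pairs of rows the sum was not steady in every group. Rps19, a small-subunit protein mutated in Diamond-Blackfan anaemia, summed with LOC100910336, averaged 1095 ± 63.5 FPKM in ES50 and 260.3 ± 57 FPKM in NC, where the coefficient of variation of the sum was 21.9%. In P_ES50 it was 36.0% for Rps19 and 54.1% for LOC100910336 but 7.77% for their sum. That sum averaged 369.4 ± 28.7 FPKM in P_ES50 and 198.6 ± 30.5 FPKM in P, without overlap. The Rps19 row alone had a log2 fold change of 0.25 ± 0.24 in P_ES50 versus P (limma, SE, adjusted p = 0.491). Of the Rpl7a rows, ENSRNOG00000047737 had 150.4 FPKM in ES50 2 but 21.5 and 19.2 FPKM in the other ES50 libraries, and in P 3 it had 0.703 FPKM while ENSRNOG00000049097 had 99.6 FPKM. Their sum varied as well, with 59.3, 161.9 and 40.5 FPKM in ES50. Rplp2, the other acidic stalk protein, had at most 0.942 FPKM in any library on its own row, while LOC100911575, described as the same protein, ranged from 10.7 to 819.4 FPKM, and the sum of both had a coefficient of variation of 126% in ES50 and 108% in NC. LOC100911372, described as an Rps6 row, ranged from 3.81 to 72.4 FPKM, and its sum with the Rps6 row had a coefficient of variation of 5.90% in ES50 and 90.8% in NC. That sum averaged 16.8 ± 0.993 FPKM in ES50 (15.7 to 17.7) and 22.6 ± 20.5 FPKM in NC (9.87 to 46.2), so the increase of the Rps6 row alone was not seen in it. A further 245 rows outside the rule name a cytosolic ribosomal protein. The 85 of these that were tested gave 72 higher and 1 lower in ES50 versus NC (median log2 fold change 1.28) and 22 higher and 0 lower in P_ES50 versus P, on the deposited scale.

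There were 10 members that had fewer than 3 libraries with an FPKM of at least 1 and were not tested. Rpl10a, Rpl23a and Rps4y2 are listed at 0 in all 18 libraries. Rpl35a (ENSRNOG00000047557) had 19.5 FPKM in P_ES50 2. The others were Rpl35a (ENSRNOG00000049536), Rpl38 (ENSRNOG00000033686), Rpl39 (ENSRNOG00000029267 and ENSRNOG00000050393), Rplp2 (ENSRNOG00000002116) and Rps2 (ENSRNOG00000059428). The rule does not cover every cytosolic ribosomal protein, and of the members to be described by role, Rpl10 and Rpl22 have no row that meets it. Of the 14 tested rows beyond the highest of each symbol, 9 rose in ES50 versus NC and 0 passed the test in P_ES50 versus P (limma, deposited scale). In P_ES50 versus P, 1 was higher and 0 lower at an unadjusted p under 0.05, against 2206 and 2312 of the 11917 tested genes.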

How the data were processed

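Poly(A) RNA of H9C2 cells was captured on beads and primed with random hexamers from 1 µg of RNA per library, per the labels' protocols. The authors deposited FPKM per gene and library for 32545 genes with symbols, positions and lengths, per the file headers. The build was Rnor 6.0, per the submitters' processing notes. Neither aligner, counting tool, strandedness nor annotation release is given in the sources used here. Multiplied by gene length, 100% of values in each library were whole multiples of the worth of 1 read (tolerance 0.01 of a read), which returned the reads behind them as a measure of depth.

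The 11917 genes (79 members among them) that reached an FPKM of 1 in 3 or more libraries were tested on the log2(FPKM + 1) scale by limma 3.58.1 in R 4.3.3 (linear models, contrasts and empirical Bayes with a trend), in a single model of 6 group means over 18 libraries, and p-values were adjusted by Benjamini-Hochberg over all tested genes of a contrast. Changes of low genes are understated on this scale. Nothing says that replicates came from separate cultures, so the p-values cover spread between libraries that may be technical. The script was checked on simulated data without mitochondrial reads, so that check does not cover a shift in the mitochondrial share. Other tools were Python 3.11.15, numpy 2.4.6, pandas 2.3.3, matplotlib 3.10.9 and version 1.17.8 of the R package data.table. Shares and sums over members are given without a p-value. Exact two-sided permutation tests of them, 3 libraries against 3, were also run, and there the smallest possible p was 0.1.

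Members and gene lists were chosen with earlier results of these data known. Named members were the 3 largest changes in each direction per contrast among called members without overlap (for interactions, without that condition), the 3 highest and 3 lowest tested levels in NC, members fixed by role, and members not tested; from the lists, all paralogs except 1, which is not reported here, and up to 4 genes per list and contrast with the smallest adjusted p. Members outside this rule are said to be so, as are the further rows of a protein. Alternatives were scaling to all reads or to reads on nuclear genes, quantile normalization, a pseudocount of 0.1, no filter, fits of the groups compared, a replicate block and leaving out each library. Fits without the ES50 libraries and with the rows of a protein summed were added after the data were seen. Same-numbered libraries did not deviate together (correlations of -0.0879 to 0.101), so the numbers were not taken as pairs.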

Additional observations from a re-analysis of the deposited data

Results flagged for a closer look

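The response to 50 pulses differed with PE in 70 of the 79 tested members, by the interaction test in limma (adjusted p under 0.05), all with a lower value with PE on the deposited scale and 74 with a higher value on the scale of all reads, and 40 with a lower value after quantile normalization. Among the members named, the difference (P_ES50 minus P, less ES50 minus NC, log2 scale) was -0.68 for Rpl3 and -1.19 for Rplp0. For 3 low rows of shared symbols it was -1.997 for Rplp1 (ENSRNOG00000011955), -1.59 for Rps10 (ENSRNOG00000052141) and -1.58 for Rpl39 (ENSRNOG00000032835).

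The Rplp1 row had 25.4, 28.2 and 6.38 FPKM in P_ES50, against 25.9, 23.5 and 21.0 FPKM in P, and 69.2, 95.8 and 65.4 FPKM in ES50, against 27.2, 24.6 and 24.1 FPKM in NC, so the low value of P_ES50 3 enters it. Rps10 on that row averaged 66.9 ± 9.22 FPKM in ES50 and 23.0 ± 2.50 FPKM in NC (SD, n = 3 each), and its change in P_ES50 versus P was -0.10 ± 0.13 (SE). The Rpl39 row rests on 2 to 6 reads per ES50 library and lost its call without any 1 of 8 of the 12 libraries compared (adjusted p 0.0517 to 0.0814).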

How the results depend on the processing

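The scale decided the direction of the 2 widest changes. Scaled to all reads, ES50 versus NC gave 0 members higher and 75 lower, P versus NC 1 higher and 0 lower, P_ES10 versus P 0 higher, P_ES50 versus P 0 higher and 65 lower, and the interaction of PE and 50 pulses 74 higher and 0 lower. Named members reversed with it. In ES50 versus NC the log2 changes were -0.63 for Rpl39 (ENSRNOG00000032835), -1.73 for Rps29 and Rps28, -1.82 for Rplp0, -1.97 for Rplp1, -2.02 for Rpsa, -2.54 for Rps3, -1.85 for Rps6 and Rpl41, -2.92 for Rpl3, -2.52 for Rpl5, -2.20 for Rpl11 and Rps4x, -2.10 for Rps27 and -2.77 for Rps27a. In P_ES50 versus P they were -0.25 for Rps28, -0.28 for Rps2, -0.35 for Rps29, -0.36 for Rplp0, -0.51 for Rplp1, -0.49 for Rpsa, -0.65 for Rps3 and Rpl11, -0.67 for Rps6, -0.63 for Rpl5, -0.46 for Rpl41, -0.61 for Rps27 and -0.54 for Rps4x. For the interaction they were 0.55 for Rplp1 (ENSRNOG00000011955), 0.93 for Rps10, 0.48 for Rpl39, 1.45 for Rplp0 and 1.95 for Rpl3. Scaled to nuclear reads, ES10 versus NC gave 7 lower, P_ES10 versus P 1 higher and P_ES50 versus P 1 lower. Quantile normalization gave 5 lower in ES10 versus NC, 58 higher and 5 lower in ES50 versus NC, 3 higher in P versus NC, 0 higher and 5 lower in P_ES10 versus P, 15 higher and 6 lower in P_ES50 versus P, and 40 lower for the interaction of PE and 50 pulses. It reversed Rps3 (-0.12), Rpl3 (-0.26), Rpl41 (-0.67) and Rps27a (-0.18) in ES50 versus NC, and Rpsa (-0.16), Rps3 (-0.13), Rpl5 (-0.0061) and Rpl41 (-0.39) in P_ES50 versus P. The cause of these shifts was not tested beyond the change of scale itself.

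Without a filter, 3 members were lower in P versus NC. Fits of only the groups compared gave 2 lower there and 1 higher in the interaction with 10 pulses. Without the ES50 libraries there were 1 higher and 1 lower in ES10 versus NC, 1 lower in P_ES50 versus P and 1 higher in that interaction. Leaving out 1 library gave 0 to 1 lower in ES10 versus NC, 71 to 73 higher and 0 to 1 lower in ES50 versus NC, 1 to 8 lower in P versus NC, 5 to 27 higher in P_ES10 versus P, 48 to 55 higher in P_ES50 versus P, 0 to 1 higher for the interaction of PE with 10 pulses, 0 to 1 higher and 68 to 71 lower for that with 50 pulses. The replicate block gave 72 higher in ES50 versus NC, 7 lower in P versus NC, 18 higher in P_ES10 versus P, 56 higher in P_ES50 versus P and 69 lower in the interaction with 50 pulses, with 0 in either direction in ES10 versus NC. With the rows of each protein summed, 67 of 68 proteins rose in ES50 versus NC and 59 in P_ES50 versus P. Of 584 values of named members under these alternatives, 484 were counted as the same, 54 lost the call and 5 gained one. A further 41 reversed direction with a call in either fit. A change of direction without a call in either fit was counted as the same.

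Shares of nuclear reads (2.84% in P, 2.94% in P_ES10, 3.53% in P_ES50, 3.04% in NC, 2.91% in ES10 and 7.23% in ES50) depend on the denominator. Nuclear genes received 1230554 to 1466851 reads in an ES50 library, and rows of few FPKM rest on few reads there. Fewer cells and less RNA per cell are not separated by these files.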
